A study of Rattus norvegicus with 9 samples.

Results

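The unfolded protein response and the protein-folding machinery of the endoplasmic reticulum (ER) were followed through 35 listed genes in ventral spinal cord taken from rat embryos on embryonic day 14. Members were all probe sets on an Affymetrix rat array whose annotation gave 1 gene symbol, equal to a listed gene. This gave 47 probe sets for 34 of the 35 genes, out of 31042 probe sets that were not array controls; Ern1, the gene of the IRE1 sensor, had 0 probe sets with its symbol. Expression was given as 1 linear intensity per probe set and array, and 40 of the 47 member probe sets, covering 33 genes, passed the filter on dim probe sets (a mean above the 40th percentile, an intensity of about 17.3), as did 18625 of all probe sets. The study ran 9 arrays, 1 for each pool of RNA from 5 embryos. There were 4 pools from embryos with a mutant human SOD1 transgene (mutant hSOD1, allele G93R, titles tagged Roth), 4 whose transgene was wild-type human SOD1 (wild-type hSOD1, titles tagged Chan) and 1 pool titled SDneg and described as the negative control. SOD1 encodes the copper-zinc superoxide dismutase, and mutations in it cause a familial form of the motor neuron disease amyotrophic lateral sclerosis. The description of the negative control also speaks of positive embryos; it was taken as negative from its title and the first words of that description. In these pools the allele goes with the transgenic line, so the mutation and the line cannot be told apart. The transgenes' promoters are not given in the sources used here. In each transgenic group the titles of replicates 2 to 4 hold the tag le2, of unstated meaning, which replicate 1 and the negative control lack. With 1 negative pool, differences from it have no replicate on that side, and the fit assumes that it varied like the transgenic pools.

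When unfolded proteins build up in the ER, sensors in its membrane start separate signalling arms. PERK (Eif2ak3) phosphorylates the translation factor eIF2α (Eif2s1), which favours translation of the transcription factor ATF4; IRE1 splices Xbp1 mRNA into the form that codes for an active factor; and ATF6 is cut in the Golgi to release its own factor. Their targets are chaperones, degradation and translocation genes, and genes of amino acid supply and cell death, and many targets answer to more than 1 arm. ATF4 and ATF6 activation and Xbp1 splicing happen after transcription, so an array of mRNA levels reads only their transcripts and those of their targets. The members were grouped into an Atf4 arm (Eif2ak3, Eif2s1, Atf4, Ddit3, Atf3, Trib3, Asns, Chac1 and Ppp1r15a), an Xbp1 arm (Ern1, which was not measured, Xbp1, Dnajb9, Dnajc3, Edem1, Derl1, Derl2, Sec61b and Ssr1), an Atf6 arm of 14 genes that include Atf6 and Hspa5, and 3 other ER folding genes (Canx, P4hb and Pdia3). In motor neurons this response has been studied widely in connection with mutant SOD1.

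The promoter sequences of 5 members are shown because they hold the motifs through which these factors are known to act on their targets. They are RefSeq windows on the assembly GRCr8, covering 250 bases before to 50 bases after the annotated start and written 5′ to 3′ along the gene; capitals mark a motif match on either strand. Hspa5 (chr3:38452766-38453065, plus strand), Xbp1 (chr14:84604373-84604672, plus strand) and Hsp90b1 (chr7:23012244-23012543, minus strand) hold the ER stress element (ERSE), searched as CCAAT and CCACG separated by 9 free bases. Herpud1 (chr19:10614658-10614957, minus strand) holds the second ER stress element (ERSE-II), searched as ATTGG, 1 free base and CCACG, and also the core of the ATF4-C/EBP composite element, TGATGCAA. Chac1 (chr3:126795881-126796180, plus strand) holds that composite core alone.
Hspa5: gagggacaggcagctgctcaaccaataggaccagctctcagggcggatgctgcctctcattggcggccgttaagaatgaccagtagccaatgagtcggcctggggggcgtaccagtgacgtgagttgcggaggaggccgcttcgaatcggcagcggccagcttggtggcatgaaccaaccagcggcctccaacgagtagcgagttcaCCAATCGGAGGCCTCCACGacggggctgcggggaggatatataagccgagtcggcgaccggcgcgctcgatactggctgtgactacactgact
Xbp1: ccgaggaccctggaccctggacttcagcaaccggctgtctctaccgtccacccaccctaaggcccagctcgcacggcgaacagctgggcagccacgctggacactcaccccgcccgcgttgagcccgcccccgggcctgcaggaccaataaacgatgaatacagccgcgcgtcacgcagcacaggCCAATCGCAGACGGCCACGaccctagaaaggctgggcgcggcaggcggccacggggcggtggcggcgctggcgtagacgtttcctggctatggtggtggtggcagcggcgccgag
Hsp90b1: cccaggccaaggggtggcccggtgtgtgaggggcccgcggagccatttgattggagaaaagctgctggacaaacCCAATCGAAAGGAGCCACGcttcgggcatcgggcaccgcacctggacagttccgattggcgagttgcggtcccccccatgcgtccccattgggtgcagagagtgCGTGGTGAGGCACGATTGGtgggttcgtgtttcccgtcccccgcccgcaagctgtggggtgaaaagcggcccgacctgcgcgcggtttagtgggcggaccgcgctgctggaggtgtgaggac
Herpud1: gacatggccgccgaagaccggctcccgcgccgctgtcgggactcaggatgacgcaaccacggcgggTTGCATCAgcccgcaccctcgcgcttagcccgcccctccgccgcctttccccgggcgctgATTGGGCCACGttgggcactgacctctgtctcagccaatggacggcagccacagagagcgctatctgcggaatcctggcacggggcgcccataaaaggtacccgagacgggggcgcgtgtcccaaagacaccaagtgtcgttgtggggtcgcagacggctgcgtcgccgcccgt
Chac1: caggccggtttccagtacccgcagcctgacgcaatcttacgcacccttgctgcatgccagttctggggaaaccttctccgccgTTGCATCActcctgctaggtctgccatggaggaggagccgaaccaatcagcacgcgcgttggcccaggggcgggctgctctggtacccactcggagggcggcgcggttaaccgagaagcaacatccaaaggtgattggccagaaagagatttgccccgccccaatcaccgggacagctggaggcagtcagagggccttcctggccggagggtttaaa
The ERSE of Hspa5 lay 43 to 25 bases before the start and that of Xbp1 65 to 47 bases before it, while Hsp90b1 had 1 match 176 to 158 bases and another, on the opposite strand, 72 to 54 bases before the start. In Herpud1 the ERSE-II match lay 124 to 114 bases and the composite core 184 to 177 bases before the start, and in Chac1 the composite core lay 167 to 160 bases before it.
A window was found for 28 of the 35 members. Some genes have more than 1 window, so the background is given both by gene and by window. An ERSE was present for 7 of these 28 genes (25%; Calr, Canx, Creld2, Dnajc3, Hsp90b1, Hspa5 and Xbp1), against 21 of all 27457 rat genes with a window and 22 of all 33469 windows (0.0657%). An ERSE-II was present for 3 (Dnajb11, Herpud1 and Hyou1), against 17 of all genes and 17 of all windows (0.0508%). The core of the UPR element, TGACGTGG, occurred in Hyou1 alone among the members, overlapping an ERSE-II there. It occurred in 187 of all genes and 199 of all windows (0.595%). The composite core was found in Chac1 and Herpud1, and in 227 of all genes and 266 of all windows (0.795%). A match describes the letters of the window and shows no binding.

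The labelled tissue matched its markers in part. All 6 neuronal markers passed the filter, with sums of 14336 to 16813 in mutant, 15052 to 16442 in wild-type and 16419 in negative pools, as did 8 of 11 measured motor neuron and ventral cord markers, with sums of 1394 to 1761 in mutant, 1245 to 1563 in wild-type and 1474 in negative pools. The ventral markers Olig2, Foxa2 and Shh did not pass. Of other cells the dissection could hold, 0 of 5 microglial, 1 of 6 meningeal, 1 of 3 endothelial, 1 of 3 red blood cell, 1 of 3 liver, 2 of 3 sensory ganglion, 2 of 4 cartilage and 2 of 4 skeletal muscle markers passed, as did all 4 of neural progenitors. The muscle genes Acta1 and Myog reached 67.1 to 120 and 21.7 to 37.5 over the 9 pools, while Myod1 stayed at or below 1.68. The sensory ganglion gene Prph, which motor neurons also express, reached 2067 to 2985 in mutant, 2090.3 to 2632 in wild-type and 1847 in negative pools. Signal at the 3' end of beta-actin over that at its 5' end, which grows as RNA degrades, averaged 7.31 ± 0.465 in mutant and 11.3 ± 5.29 in wild-type pools (SD, n = 4 each) and 6.66 in the negative pool; no mutant pool overlapped the wild-type pools (p = 0.0286 in an exact permutation test, two-sided, with 70 arrangements and no smaller p possible). Wild-type replicate 2 stood apart with an actin ratio of 19.2. The same ratio for GAPDH was 2.492 to 2.587 in mutant and 2.585 to 3.561 in wild-type pools, beside 2.68 in the negative pool. For GAPDH the groups overlapped (p = 0.0571 in the same exact permutation test), and wild-type replicate 2 was again the highest. Standard deviations give the spread between pools, and the p-values of the comparisons below set a difference against such a spread. For the 1 negative pool that spread is taken from the transgenic pools. In such bulk RNA fewer cells of a type and less RNA per cell cannot be told apart.

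Between mutant and wild-type hSOD1 no member passed the test in any arm. Members of the Atf4 and Xbp1 arms mostly had slightly higher means in mutant pools, by medians of 0.12 and 0.098 on the log2 scale, and members of the Atf6 arm lay on both sides of 0. Against the negative control, the Atf4 arm had the largest median difference, with Ddit3 (0.54), Atf4 itself (0.50) and Ppp1r15a (0.47) highest beside Trib3 (0.80). Trib3 passed the filter only through its transgenic pools, so its value is no support for a difference. The Atf6 arm held the differences of Herpud1 (0.98), Sel1l (0.36) and Hspa5 (0.24) among many near 0. Xbp1 was the member that was lower in every transgenic pool. None of these differences passed the test over all probe sets.

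Log2 values were taken after adding 8.25 to each intensity, which understates the differences of dim probe sets, and p-values from limma were adjusted over all 18625 tested probe sets. By this test, 0 of 40 member probe sets had an adjusted p under 0.05 between mutant and wild-type hSOD1, where 3 of all did (0.0161%). At an unadjusted p under 0.05 there were 2 members, Xbp1 and 1 of 3 Derl1 probe sets (5.00% of 40), close to the 4.96% of all probe sets. In 1 member probe set, another for Derl1, all 4 mutant pools lay above all 4 wild-type pools (2.5%, against 1.71% of all), and in 0 all 4 lay below (1.25% of all). With both transgenes together against the negative control, 0 members and 0 of all probe sets passed (0%). At an unadjusted p under 0.05 there were 4, namely Atf4, Herpud1, Trib3 and Hspa5 (10.0% of 40, against 3.12% of all). Trib3 passed the filter only through its transgenic pools, its negative pool being below it, so its place in this and the following counts is no support for a difference. All 8 transgenic pools lay above the negative pool for 7 members (17.5%, against 9.19% of all), which were Atf4, Ddit3, Trib3, Ppp1r15a, Herpud1, Hspa5 and Sel1l, and all 8 lay below it for Xbp1 alone (2.5%, against 10.5% of all). Mutant pools by themselves gave 0 members with an adjusted p under 0.05 (0% of all) and Atf4, Herpud1, Trib3 and Hspa5 at an unadjusted p under 0.05 (2.29% of all). Wild-type pools gave 0 (0% of all) and Atf4, Herpud1, Trib3 and Xbp1 (4.28% of all); both comparisons rest on the same negative pool.

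**Figure D1:**
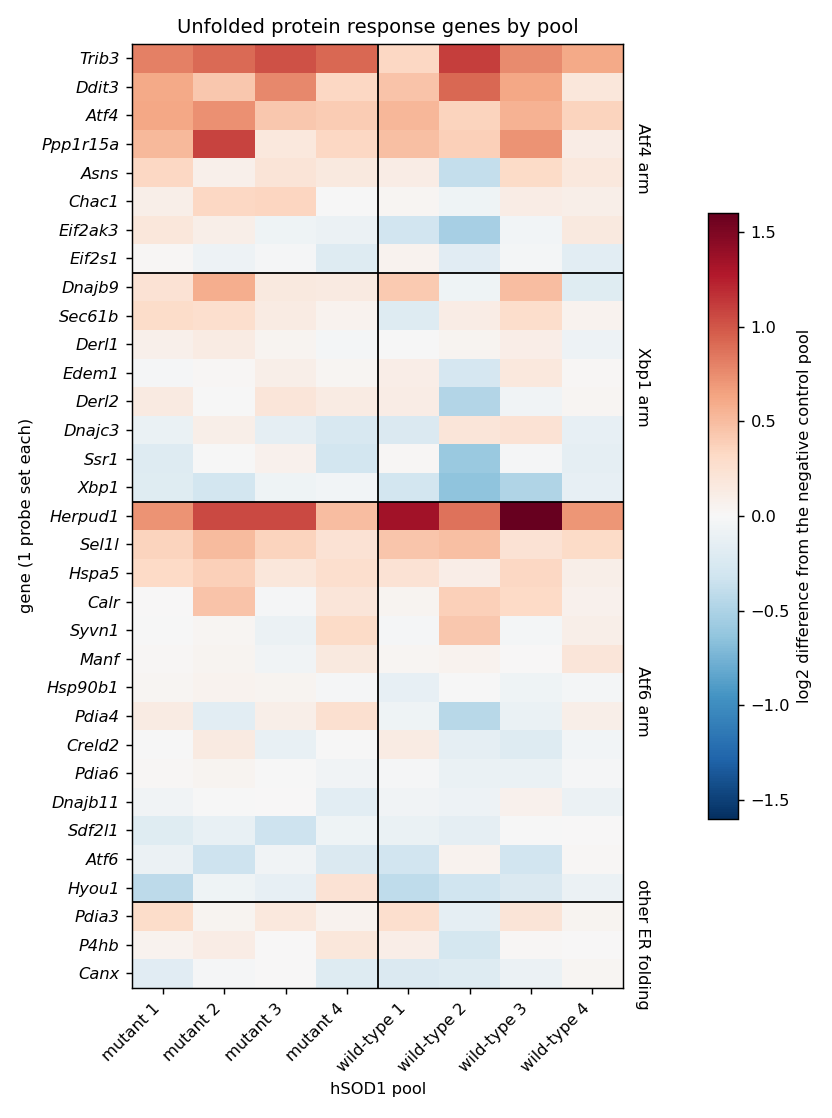
Log2 difference from the negative control pool (colour) for 33 genes, 1 probe set each, in each mutant and wild-type hSOD1 pool, grouped by arm. Trib3, Ddit3, Atf4, Ppp1r15a, Herpud1, Sel1l and Hspa5 are red in all 8 pools, Xbp1 is blue in all 8, and most other genes are pale or mixed.

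Counted by gene, with the brightest probe set of each, the Atf4 arm had 7 of 8 tested members higher and 1 lower in mutant than in wild-type pools (median 0.12), the Xbp1 arm 7 and 1 (median 0.098), the Atf6 arm 6 and 8 (median -0.0072) and the other ER folding genes 3 and 0 (median 0.046). Over the 33 tested genes 23 were higher (69.7%), against 53.7% of all tested probe sets, whose median was 0.013. These values moved with single pools: over the 8 pools left out in turn, the median ranged from 0.065 to 0.18 for the Atf4 arm and from 0.034 to 0.16 for the Xbp1 arm, lowest without mutant replicate 2 and highest without wild-type replicate 3 in both. Without wild-type replicate 4 the Atf4 arm had 5 higher and 3 lower (median 0.11). Without wild-type replicate 2 the Atf4 arm had 6 higher and 2 lower (median 0.088), the Xbp1 arm 5 and 3 (0.047), the Atf6 arm 10 and 4 (0.040) and the other folding genes 1 and 2 (-0.0043). Wild-type replicate 2 was the lowest of the 8 transgenic pools for 11 of the 33 genes (33.3%, against 22.4% of all probe sets), among them Xbp1, Eif2ak3, Pdia4, Derl2 and P4hb, and it is the pool with the actin ratio of 19.2. The same pool was the highest for 4 of the 33 genes, Atf6, Ddit3, Syvn1 and Trib3 (12.1%, against 21.0% of all probe sets). With the log2 actin ratio as a covariate, the Atf4 arm had 5 members higher and 3 lower in mutant than in wild-type pools (median 0.079), the Xbp1 arm 4 and 4 (0.015), the Atf6 arm 9 and 5 (0.049) and the other folding genes 0 and 3 (-0.027). As the actin ratios of mutant and wild-type pools did not overlap, this setting cannot part the ratio from the transgene. Mutant replicate 2 was the highest pool for 10 of the 33 genes (30.3%, against 9.98% of all), including Atf4, Hspa5, Ppp1r15a and Dnajb9.

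Under the main filter the arm medians lay further apart against the negative control than between mutant and wild-type pools. With a filter at the 60th percentile the medians against the negative control were 0.12, 0.017 and -0.026 for the Atf4, Xbp1 and Atf6 arms. Between mutant and wild-type pools that filter gave 0.12, 0.12 and -0.011. Under the main filter the Atf4 arm had a median log2 difference of 0.30 with a transgene, with 6 of 8 tested members higher and 2 lower. Against the negative pool mutant pools gave a median of 0.36 and wild-type pools one of 0.24. The median with a transgene was 0.47 when Atf3, which failed the filter, was counted. Under a stricter filter that left out the dim Trib3 and Ddit3 it was 0.12, with 0.19 in mutant and 0.049 in wild-type pools. Trib3 passed the main filter only through its transgenic pools, so its part in these medians and counts is no support for a difference. The Xbp1 arm had 5 higher and 3 lower (median 0.015; 0.042 in mutant and 0.010 in wild-type pools). The Atf6 arm had 6 higher and 8 lower (median -0.022; 0.034 in mutant and -0.051 in wild-type pools). Of the 3 other ER folding genes 2 were higher (median 0.028). All 33 tested genes had 19 higher and 14 lower (57.6% higher, median 0.028), against 46.5% of all tested probe sets, whose median was -0.017.

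Eif2ak3, which encodes the sensor PERK of the Atf4 arm, had intensities of 112, 105, 92.5 and 91.4 in mutant pools, 77.6, 65.4, 94.2 and 110.4 in wild-type pools, beside 97.8 in the negative pool. The mutant pools lay closer together than the wild-type pools and overlapped them, and the negative pool fell within both ranges. The mutant minus wild-type log2 difference was 0.21 (SE 0.15, 95% interval -0.12 to 0.53; adjusted p in limma = 0.928) and ranged from 0.093, without wild-type replicate 2, to 0.32, without wild-type replicate 4. Transgenic minus negative it was -0.075. Its substrate Eif2s1 averaged 826 ± 55.1 in mutant and 824 ± 66.9 in wild-type pools (SD, n = 4 each), against 868 in the negative pool.

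Atf4, the factor of the arm, had 1621, 1758, 1422 and 1405 in mutant pools, 1526, 1357, 1558 and 1354 in wild-type pools, beside 1054 in the negative pool. Mutant and wild-type pools overlapped, and every transgenic pool lay above the negative one. Transgenic over negative the ratio of mean intensities was 1.42, and the log2 difference was 0.50 (SE 0.13, 95% interval 0.22 to 0.78; adjusted p = 1.00). The mutant and the wild-type pools each contributed, with log2 differences from the negative pool of 0.55 and 0.45. Mutant minus wild-type the log2 difference was 0.095 (SE 0.087, interval -0.093 to 0.28, adjusted p = 0.936), and it ranged from 0.033, without mutant replicate 2, to 0.14, without mutant replicate 4.

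Trib3, a pseudokinase gene induced by ATF4 that dampens the response, had 21.2, 23.3, 25.9 and 23.6 in mutant pools, 13.0, 28.1, 20.2 and 17.3 in wild-type pools, beside 8.63 in the negative pool on its 1 probe set above the filter. All transgenic pools were above the negative pool, whose value is at the level of the pseudocount of 8.25, and the wild-type pools spread on both sides of the mutant ones. The transgenic log2 difference was 0.80 (SE 0.28, interval 0.21 to 1.40; adjusted p = 1.00), and mutant minus wild-type it was 0.21 (SE 0.18). On the 2 other Trib3 probe sets, both below the filter, 4 and 2 of the 8 transgenic pools were above the negative pool.

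Ddit3, which encodes the pro-apoptotic factor CHOP, had 58.1, 50.5, 65.9 and 46.6 in mutant pools, 51.3, 74.0, 58.4 and 41.0 in wild-type pools, beside 35.3 in the negative pool. The transgenic groups overlapped fully and all 8 of their pools exceeded the negative one. Its log2 difference was 0.54 with a transgene (SE 0.25, interval -0.0076 to 1.09, adjusted p = 1.00) and -0.0045 between mutant and wild-type (SE 0.17). Ppp1r15a, the GADD34 subunit that directs a phosphatase to eIF2α, had 87.6, 133, 66.4 and 75.3 in mutant pools, 84.8, 78.5, 101 and 64.2 in wild-type pools, beside 58.4 in the negative pool. Mutant replicate 2 was the highest pool and the lowest transgenic pool was close to the negative one. The transgenic log2 difference was 0.47 (SE 0.29, interval -0.14 to 1.09, adjusted p = 1.00).

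The metabolic targets of the arm had smaller differences. Asns, asparagine synthetase, averaged 159 ± 12.3 in mutant and 145 ± 29.3 in wild-type pools (SD, n = 4 each), against 137 in the negative pool, with 7 of 8 transgenic pools above it. Chac1, which degrades glutathione and has the composite core printed above, averaged 131 ± 16.7 in mutant and 117 ± 7.06 in wild-type pools, against 113 in the negative pool. Their transgenic log2 differences of 0.12 for each had intervals of -0.34 to 0.59 and -0.26 to 0.49. Atf3, another stress-induced factor, stayed below the filter with 8.43, 16.3, 16.6 and 16.2 in mutant pools, 12.1, 14.7, 13.5 and 15.9 in wild-type pools, beside 4.46 in the negative pool, and was not tested.

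**Figure D2:**
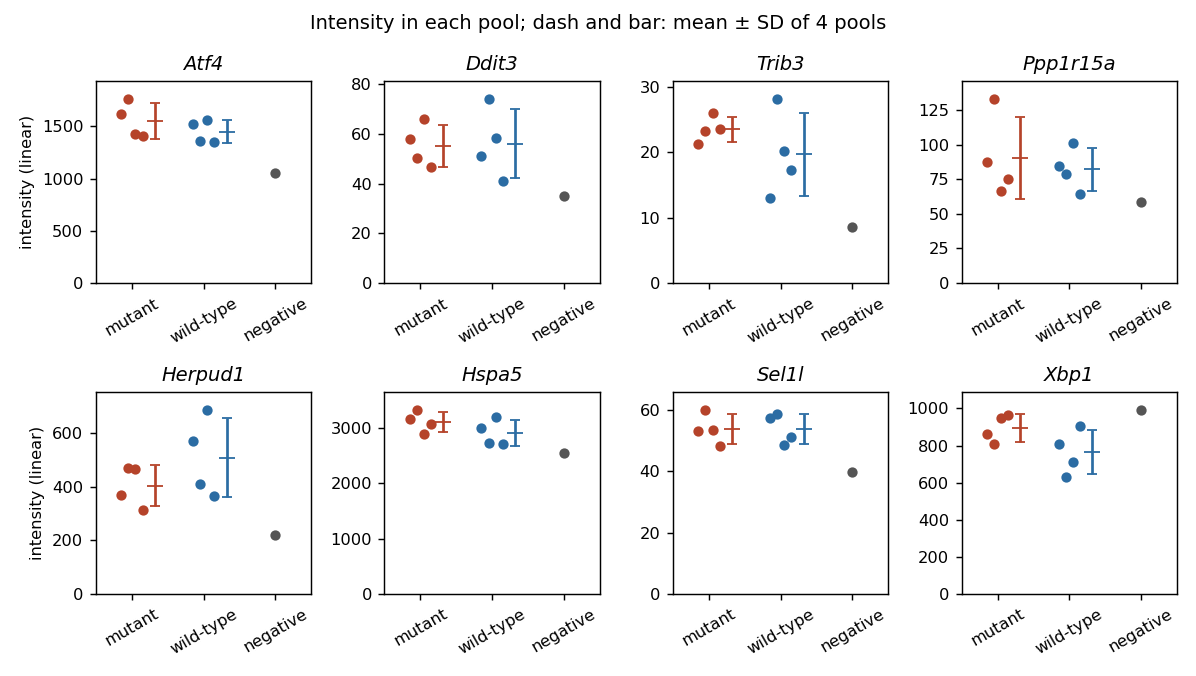
Linear intensity of 8 members in each mutant, wild-type and negative control pool (points), with mean and SD of the 4 pools of each transgenic group. For 7 genes every transgenic pool is above the negative pool, for Xbp1 every one is below its 991, and mutant and wild-type points overlap in all 8 panels.

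Xbp1, the factor of the IRE1 arm, had 865, 806, 947 and 964 in mutant pools, 807, 630.5, 709 and 904 in wild-type pools, beside 991 in the negative pool. The probe set was not placed on the transcript, so its reading cannot be assigned to the spliced or the unspliced form of Xbp1 mRNA. The groups overlapped, with wild-type replicates 2 and 3 below every mutant pool, and all 8 were under the negative pool. Mutant minus wild-type the log2 difference was 0.24 (SE 0.11, interval 0.0041 to 0.47; adjusted p = 0.928). It ranged from 0.15, without wild-type replicate 2, to 0.32, without wild-type replicate 4, and was 0.070 with the actin ratio as a covariate. Against the negative pool it was -0.27 with a transgene (SE 0.16, interval -0.62 to 0.083, adjusted p = 1.00), -0.15 in mutant and -0.39 in wild-type pools.

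Derl1, a derlin of the retrotranslocation channel that has been reported to bind mutant SOD1 protein, was measured by 3 probe sets that did not give the same answer. On the dimmest it had 95.2, 82.2, 92.1 and 76.8 in mutant pools, 64.0, 55.6, 82.7 and 69.4 in wild-type pools, beside 90.2 in the negative pool. Here only wild-type replicate 3 reached into the mutant range, and the negative pool lay within the mutant range. The mutant minus wild-type log2 difference was 0.32 (SE 0.14, interval 0.030 to 0.62; adjusted p = 0.928). It ranged from 0.24, without wild-type replicate 2, to 0.41, without wild-type replicate 3, and was 0.17 with the actin ratio as a covariate.

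On the next Derl1 had 452, 465, 473 and 455 in mutant pools, 441, 429, 408 and 423 in wild-type pools, beside 473 in the negative pool. The mutant pools did not overlap the wild-type pools, yet the log2 difference was 0.12 (SE 0.078, interval -0.053 to 0.28; adjusted p in limma = 0.928). The brightest Derl1 probe set overlapped fully, with 640.2 ± 31.3 in mutant and 621 ± 34.1 in wild-type pools (SD, n = 4 each) and 615 in the negative pool.

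Derl2, its paralog, had 182, 164, 189.7 and 181 in mutant pools, 179.9, 117, 158 and 168 in wild-type pools, beside 164 in the negative pool on the brighter of its probe sets. Without the low wild-type replicate 2 the groups were nearer, and the log2 difference of 0.21 (SE 0.13, interval -0.071 to 0.49; adjusted p in limma = 0.928) became 0.085. Its other probe set went the opposite way, with 39.6 ± 6.04 in mutant and 44.4 ± 3.02 in wild-type pools (SD, n = 4 each).

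Dnajb9, an ER cochaperone and a typical XBP1 target, averaged 374 ± 57.7 in mutant and 348 ± 84.5 in wild-type pools (SD, n = 4 each), against 304 in the negative pool. Dnajc3, a cochaperone that restrains PERK, averaged 55.6 ± 6.38 in mutant and 61.4 ± 11.2 in wild-type pools, beside 59.95 in the negative pool. Their mutant minus wild-type log2 differences were 0.12 and -0.12, with intervals of -0.22 to 0.46 and -0.43 to 0.20. Edem1, which directs glycoproteins to degradation, had 126 ± 4.44 in mutant, 125 ± 17.1 in wild-type and 124 in negative pools. The translocon gene Sec61b had 1289 ± 101 in mutant, 1187 ± 166 in wild-type and 1128 in negative pools, and Ssr1, a translocon-associated subunit, had 612 ± 71.0 in mutant, 585 ± 105 in wild-type and 657 in negative pools. No target of this arm stood clear of the negative pool in all 8 transgenic pools.

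Atf6, the sensor of the remaining arm, had 218, 184, 225 and 198 in mutant pools, 186, 243, 186 and 236 in wild-type pools, beside 233 in the negative pool. The wild-type pools enclosed nearly the whole mutant range, and the negative pool lay inside the wild-type one. The log2 difference was -0.040 between mutant and wild-type (SE 0.12, interval -0.30 to 0.22; adjusted p in limma = 0.976), with a sign that changed when single pools were left out, and -0.16 between transgenic and negative (SE 0.18).

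Hspa5, the master chaperone BiP, had 3176, 3329.9, 2891 and 3073 in mutant pools, 2996, 2737, 3211 and 2721 in wild-type pools, beside 2549 in the negative pool. The transgenic groups overlapped and lay above the negative pool throughout. Transgenic over negative the ratio of means was 1.18 and the log2 difference 0.24 (SE 0.11, interval 0.0093 to 0.47; adjusted p = 1.00). Mutant minus wild-type it was 0.097 (SE 0.071, interval -0.055 to 0.25, adjusted p = 0.928).

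Herpud1, which assembles the degradation complex in the ER membrane, had 369, 469, 468 and 314 in mutant pools, 572, 411, 687 and 367 in wild-type pools, beside 221 in the negative pool. On the log2 scale with 8.25 added it had the largest transgenic difference among the tested members, whereas with 2.06 added Trib3 had 1.12 and Herpud1 1.00; wild-type replicates 1 and 3 were above every mutant pool. Transgenic over negative the ratio was 2.07 and the log2 difference 0.98 (SE 0.28, interval 0.38 to 1.58; adjusted p = 1.00), with 0.83 in mutant and 1.13 in wild-type pools. Mutant minus wild-type the log2 difference was -0.30 (SE 0.18, interval -0.70 to 0.096, adjusted p = 0.928). With single pools left out it ranged from -0.44, without wild-type replicate 4, to -0.14, without wild-type replicate 3.

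Sel1l, the adaptor of the ER ubiquitin ligase, had 53.2, 60.002, 53.6 and 48.1 in mutant pools, 57.3, 58.7, 48.5 and 51.1 in wild-type pools, beside 39.9 in the negative pool. The transgenic groups overlapped and every pool was above the negative pool, with a log2 difference of 0.36 (SE 0.19, interval -0.052 to 0.78; adjusted p in limma = 1.00). Its partner ligase Syvn1 averaged 222 ± 28.9 in mutant and 232 ± 38.3 in wild-type pools (SD, n = 4 each), against 211 in the negative pool, and 4 of 8 transgenic pools were above it.

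Pdia4, a disulfide isomerase, had 369.8, 297, 359.7 and 402 in mutant pools, 319, 244, 311 and 359 in wild-type pools, beside 335 in the negative pool. The groups overlapped through mutant replicate 2, which lay below wild-type replicates 1, 3 and 4. The mutant minus wild-type log2 difference of 0.21 (SE 0.13, interval -0.061 to 0.48; adjusted p in limma = 0.928) ranged from 0.11, without wild-type replicate 2, to 0.30, without mutant replicate 2. Pdia6, another isomerase, averaged 1384 ± 38.1 in mutant and 1327 ± 45.7 in wild-type pools (SD, n = 4 each), against 1385 in the negative pool.

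The other classical ATF6 targets lay on both sides of the negative pool. Hsp90b1, the ER form of HSP90, averaged 1130.2 ± 26.6 in mutant and 1064 ± 39.8 in wild-type pools (SD, n = 4 each), against 1110.0 in the negative pool, and its transgenic log2 difference of -0.018 had an interval of -0.23 to 0.20. Calr, the soluble lectin chaperone calreticulin, averaged 519.7 ± 82.9 in mutant, 533 ± 64.4 in wild-type and 459.7 in negative pools, with 7 of 8 transgenic pools above. The cochaperone Dnajb11 had 603 ± 32.9 in mutant, 607 ± 32.9 in wild-type and 625 in negative pools, and its partner Sdf2l1 had 131 ± 10.9 in mutant, 143 ± 7.59 in wild-type and 149.7 in negative pools. Hyou1, the exchange factor of BiP, had 164 ± 31.6 in mutant, 145 ± 14.6 in wild-type and 174 in negative pools. Creld2 had 317 ± 24.6 in mutant, 302 ± 32.1 in wild-type and 316 in negative pools, and Manf had 351 ± 22.6 in mutant, 357 ± 21.7 in wild-type and 339.8 in negative pools. These genes of secreted ER proteins differed from the negative pool by -0.030 and 0.056 on the log2 scale, with intervals of -0.36 to 0.30 and -0.23 to 0.34.

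Among the other folding genes, P4hb, the main disulfide isomerase, had 1968, 2067, 1906 and 2145 in mutant pools, 2045, 1559, 1927 and 1899 in wild-type pools, beside 1895 in the negative pool. Apart from the low wild-type replicate 2 the pools lay close together, and the mutant minus wild-type log2 difference of 0.13 (SE 0.084, interval -0.055 to 0.31; adjusted p in limma = 0.928) was 0.046 without it. The membrane lectin chaperone Canx averaged 2427 ± 186 in mutant, 2388 ± 203 in wild-type and 2598 in negative pools on its brightest of 3 probe sets. The glycoprotein isomerase Pdia3 averaged 779 ± 64.5 in mutant, 757 ± 95.9 in wild-type and 703 in negative pools (SD, n = 4 for each transgenic group). With the actin ratio as a covariate the mutant minus wild-type log2 differences of P4hb, Pdia4, Derl2 and Eif2ak3 turned to -0.011, -0.0029, -0.016 and -0.013. No mutant pool overlapped the wild-type pools in that ratio, so the ratio and the transgene cannot be told apart here.

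**Figure D3:**
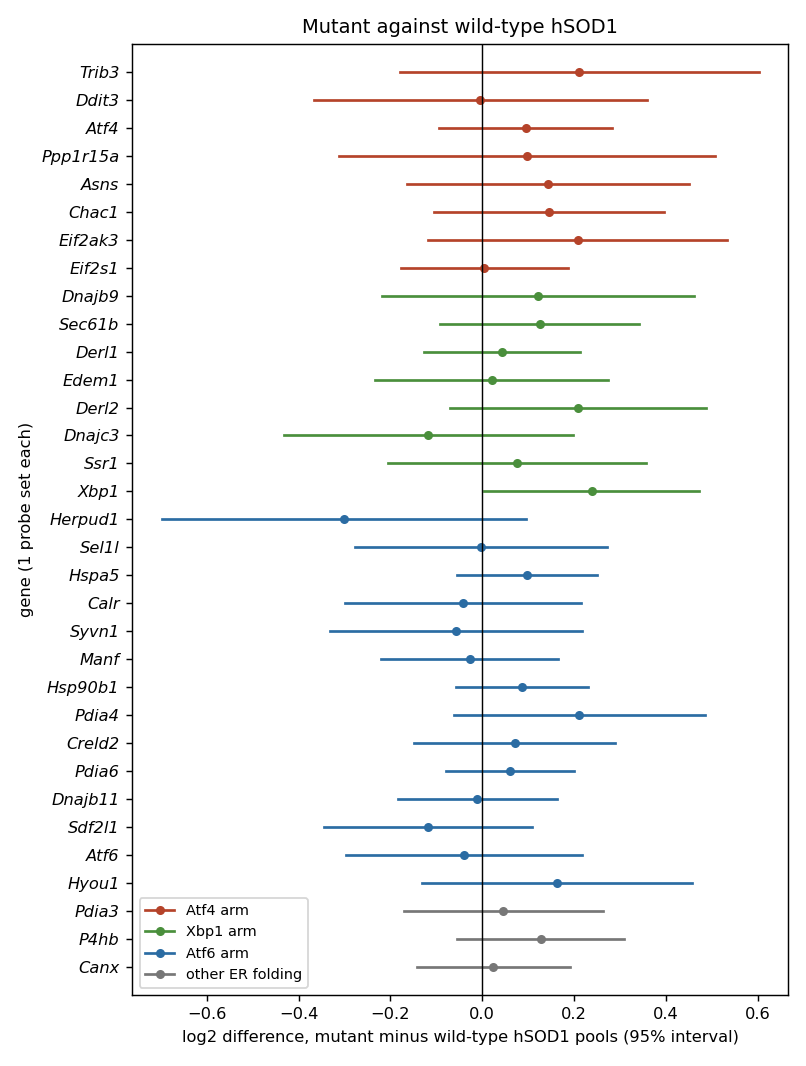
Mutant minus wild-type hSOD1 log2 difference (point) with its 95% interval from limma (line) for 33 genes, coloured by arm. Every interval except that of Xbp1 (0.0041 to 0.47) includes 0, and the points lie between -0.30 for Herpud1 and 0.24 for Xbp1.

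The precision of the arrays sets what these comparisons could show. For the tight chaperone genes the intervals of the mutant minus wild-type log2 difference were narrow, -0.058 to 0.23 for Hsp90b1 and -0.078 to 0.20 for Pdia6, whereas those for Herpud1 (-0.70 to 0.096) and Ppp1r15a (-0.31 to 0.51) were wider. The coefficient of variation over the 8 transgenic pools was 3.66% for Pdia6, 4.31% for Hsp90b1 and 7.37% for Hspa5, and 22.2% for Trib3, 25.7% for Ppp1r15a and 26.8% for Herpud1. Herpud1 and Trib3, the tested members with the largest log2 differences from the negative pool, were thus among those that varied most between pools, while Atf4 had 9.50%. Further probe sets of a gene did not always side with the brightest. A second Ssr1 probe set had 45.4 ± 2.91 in mutant and 43.0 ± 8.80 in wild-type pools (SD, n = 4 each), above the 37.6 of the negative pool, where the brighter one was below it. A second Pdia3 probe set had 90.9 ± 3.16 in mutant, 94.4 ± 12.2 in wild-type and 87.1 in negative pools. The 2 dimmer Canx probe sets had 377 ± 12.5 and 81.0 ± 4.11 in mutant, 346 ± 82.7 and 75.9 ± 11.0 in wild-type and 361 and 80.5 in negative pools. The 7 probe sets below the filter, for Atf3, a second Atf6, 2 of Edem1, 1 of Hyou1 and 2 of Trib3, were not tested.

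Whether members varied together from pool to pool was asked of 6 pairs over the 8 transgenic pools. The pair that passed was Atf4 and Hspa5, for which Pearson's r was 0.89 (exact permutation p = 0.0031, Benjamini-Hochberg adjusted over the 6 pairs 0.0186) and Spearman's rho 0.90 (exact permutation p = 0.00456, adjusted 0.0274). In mutant pools alone r was 0.89 and in wild-type pools alone 0.97, but 4 pools each are too few to show a relation within a group. Without mutant replicates 1 and 2, the pools farthest from the median of Atf4, r was 0.83. Members and rules were chosen with earlier results of these data known, which the adjusted p does not take into account. Without wild-type replicate 2, an alternative added after the data were seen, r was 0.87 and the adjusted exact permutation p was 0.0667. Of the 18624 tested probe sets other than that of Atf4, 43 (0.231%) had an r with Atf4 at least as high as that of Hspa5.

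The 5 pairs chosen within an arm did not reach the threshold. Atf4 had r = 0.39 with its target Asns and -0.14 with Trib3. Hspa5 had r = 0.30 with Herpud1 and 0.15 with Hsp90b1, and Xbp1 had r = -0.12 with Dnajb9. All 5 had an adjusted exact permutation p of 0.784, and Spearman's rho was 0.24, -0.17, 0.43, 0.24 and -0.36 for these pairs, with adjusted exact permutation p of 0.699, 0.703, 0.699, 0.699 and 0.699. Without the 2 pools farthest from the median of the first gene, r was 0.54, -0.50, 0.068, 0.20 and -0.69. Without wild-type replicate 2 it was 0.0015, 0.085, 0.28, 0.22 and -0.71. Spearman's rho of Xbp1 and Dnajb9 was then -0.86 (adjusted exact permutation p = 0.0714). In mutant pools alone r was -0.18, -0.56, 0.020, 0.17 and -0.91, and in wild-type pools alone 0.63, -0.48, 0.99, -0.63 and -0.16.

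**Figure D4:**
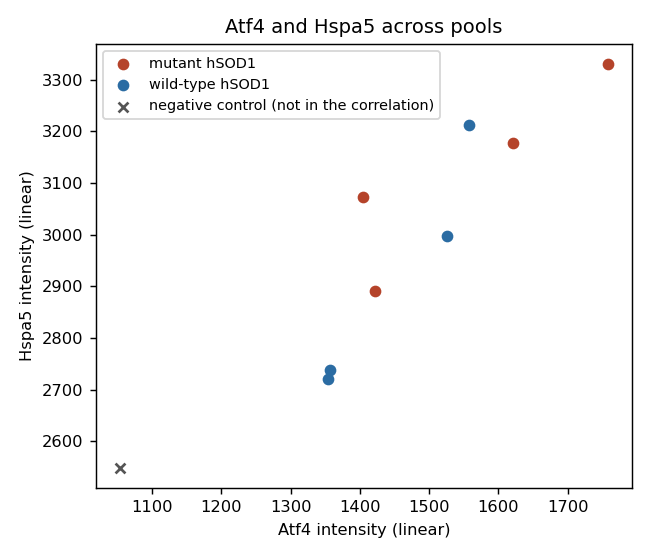
Linear intensity of Hspa5 against Atf4 in the 4 mutant, 4 wild-type and 1 negative control pools (points; the cross, the negative pool, is not in the correlation). Pools high in Atf4 are high in Hspa5 in both transgenic groups, up to mutant replicate 2 at 1758 and 3329.9, and the negative pool is lowest in both at 1054 and 2549.

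The promoter motifs printed above were set beside the members' differences. Of the 10 tested genes with an ERSE or ERSE-II, 3 were higher and 7 lower in transgenic than in negative pools (median -0.036, range -0.27 for Xbp1 to 0.98 for Herpud1). Of the 18 with a window but neither element, 13 were higher and 5 lower (median 0.10). Over all tested probe sets 46.5% were higher. Trib3, among the 13, passed the filter only through its transgenic pools, so its place there is no support for a difference. Between mutant and wild-type pools 6 of the 10 and 14 of the 18 were higher, with medians of 0.048 and 0.11, against 53.7% of all tested probe sets. The 18 include all 8 tested members of the Atf4 arm, so the split by motif overlaps the split by arm, and it was not tested. Herpud1 was the one member with both an ERSE-II and a composite core.

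The wider pathway gave no gene past the test in any direction either. Over all tested probe sets, 4.96% had an unadjusted p under 0.05 between mutant and wild-type pools and 3.12% with a transgene, and all 8 transgenic pools lay above the negative pool in 9.19% and below it in 10.5%; the genes named from each list are the 3 lowest in p. Of ATF4 targets outside the list, 25 of 36 listed symbols were tested between mutant and wild-type pools and 0 passed in limma (15 higher, 10 lower, median 0.079; 1 at an unadjusted p under 0.05). Lowest in p were Eif4ebp1, an inhibitor of translation initiation, with 34.2 ± 1.12 in mutant against 23.0 ± 7.22 in wild-type pools, the amino acid transporter gene Slc7a3 with 37.5 ± 7.61 in mutant against 27.7 ± 6.53 in wild-type pools, and the stress gene Sesn2 with 89.5 ± 6.26 in mutant against 75.0 ± 9.88 in wild-type pools (SD, n = 4 each). With a transgene 10 of 24 were higher and 14 lower than in the negative pool (median -0.026). This list thus had a median near that of all probe sets. The Atf4 arm had 0.30 with Trib3 in it and 0.12 under the stricter filter that left out Trib3 and Ddit3. Arm and list were chosen with earlier results known, so the gap between them is no result about ATF4 targets. The tryptophanyl-tRNA synthetase gene Wars1 (795 ± 103 in 8 transgenic pools against 1020.3) and the tRNA exporter gene Xpot (73.9 ± 8.65 against 94.7) were below the negative pool in all 8 pools, and the stress gene Ddit4 (213 ± 52.3 against 148) was above it in 7.

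Of genes controlling eIF2, 11 of 13 symbols were tested, with 7 higher and 4 lower in mutant than in wild-type pools and 0 past the test (1 at an unadjusted p under 0.05). Eif2ak1, the haem-regulated eIF2α kinase, had 415 ± 60.5 in mutant and 523 ± 63.5 in wild-type pools (SD, n = 4 each), Eif2ak4, the amino acid sensing kinase GCN2, 278 ± 58.0 in mutant and 223 ± 93.8 in wild-type pools, and the exchange factor subunit Eif2b3 96.6 ± 8.29 in mutant and 86.3 ± 15.3 in wild-type pools. Against the negative pool 5 were higher and 6 lower (median -0.037); Eif2ak1 had 469 ± 81.4 in 8 transgenic pools against 355, the eIF2 subunit gene Eif2s3 1108 ± 64.9 against 1247 and Eif2b3 91.5 ± 12.6 against 111.

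In ER folding and quality control outside the list, 29 of 36 symbols were tested, and 16 were higher and 13 lower in mutant than in wild-type pools (median 0.0078; 0 past the test, 0 at an unadjusted p under 0.05). The prolyl isomerase gene Fkbp2 had 659 ± 99.4 in mutant and 781 ± 104 in wild-type pools, its relative Fkbp7 58.7 ± 1.85 in mutant and 48.0 ± 6.42 in wild-type pools, and the isomerase gene Txndc5 408 ± 14.7 in mutant and 367 ± 18.0 in wild-type pools (SD, n = 4 each). With a transgene 17 were higher and 12 lower (median 0.062; 3 at an unadjusted p under 0.05). These 3, the chaperone-like Erp29 (724 ± 70.5 in 8 transgenic pools against 575), the cyclophilin gene Ppib (1447 ± 102 against 1193) and the calcium-binding Nucb2 (173 ± 16.7 against 132), were above the negative pool in all 8.

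ER-associated degradation had 17 of 22 symbols tested, of which mutant pools were higher in 8 and lower in 9 (median -0.0028; 0 past the test, 0 at an unadjusted p under 0.05); Man1b1, Edem2 and Ube2g2, lowest in p, differed by 0.11, 0.11 and -0.076 on the log2 scale. With a transgene 11 were higher and 6 lower (median 0.070; 1 at an unadjusted p under 0.05). The ubiquitin-conjugating gene Ube2g2 (263 ± 20.1 in 8 transgenic pools against 203) and the p97 cofactor genes Ufd1 (896 ± 58.8 against 744) and Nploc4 (477 ± 35.3 against 394) were above the negative pool in all 8. Translocation and N-glycosylation had 29 of 31 symbols tested, of which mutant pools were higher in 18 and lower in 11 (median 0.016; 0 past the test, 1 at an unadjusted p under 0.05), where the translocon genes Sec62 and Sec61g and the oligosaccharyltransferase gene Krtcap2 differed by -0.25, -0.20 and -0.14. With a transgene 14 were higher and 15 lower (median -0.0082; 1 at an unadjusted p under 0.05), and the signal recognition gene Srp9 (178 ± 24.3 in 8 transgenic pools against 127), the signal peptidase gene Sec11c (278 ± 24.4 against 221) and the ribophorin gene Rpn1 (2501 ± 104 against 2250.1) were above the negative pool in all 8.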

How the data were processed

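Total RNA of 9 pools was measured on Affymetrix arrays, 1 pool each. The deposited table holds 1 linear intensity per probe set and array, as the authors made it with software not given in the sources used here; equal trimmed means in all arrays (150.00 after trimming 2% at each end) show a common scaling. Array medians were 31.0 to 33.9. Of 31099 probe sets, 57 controls were left out, and the annotation gave 1 symbol to 20826 of the rest, several to 436 and none to 9780.

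Intensities were taken to log2 after adding 8.25, the 25th percentile. Probe sets with a mean log2 value above the 40th percentile (an intensity of about 17.3) were tested with limma 3.58.1 in R 4.3.3 (lmFit, eBayes with trend, Benjamini-Hochberg over 18625 probe sets, threshold 0.05). Mutant and wild-type hSOD1 were fitted on their 8 arrays, comparisons with the negative control on 9. Fold differences understate changes of dim genes. Arms use the brightest probe set per gene. Values of every pool are given for sensors and factors and for the 8 members lowest in p per comparison, and 3 genes per wider list and comparison are named. Members, arms, lists and rules were chosen with earlier results of these data known. The script was tested on simulated data. Co-variation used exact permutations (scipy 1.17.1). Promoters came from RefSeq tables; proteins were not analysed here. Alternatives covered normalization, pseudocount, filter, variance model, array weights, probe sets per gene, the le2 tag, the actin ratio, a replicate block and leaving out each pool.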

Additional observations from a re-analysis of the deposited data

Results flagged for a closer look

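One value stood apart from its group by Dixon's 95% limit. Dnajb9, an ER cochaperone gene, had an intensity of 459.6 in mutant replicate 2, against 338 to 358 in the other mutant pools; the gap to the nearest pool was 0.837 of the range of the group. Chance alone gives about 1 such value in 20 groups, and 80 groups were looked at.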

How the results depend on the processing

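No member passed the threshold under any alternative, and of 864 alternative values of single members 846 kept their sign. Between mutant and wild-type hSOD1 the 3 probe sets past the threshold became 5 with median centring, 1 without a filter, 0 without the variance trend, 1 with the le2 tag as a covariate, 0 with the actin ratio in the model, 0 without the arrays lacking the tag, and 1 to 3 with single pools left out. With a transgene against the negative control the count of 0 became 1 with median centring, with a pseudocount of 2.06 and with 1 probe set per gene, and was 0 to 1 with single pools left out; for mutant pools alone it became 1 with a pseudocount of 2.06, and for wild-type pools alone 1 with median centring, a pseudocount of 2.06 or 1 probe set per gene, and 0 to 1 with single pools left out. The median of the Atf4 arm against the negative control was 0.47 with both transgenes, 0.52 in mutant and 0.43 in wild-type pools without a filter, and 0.12, 0.19 and 0.049 with a filter at the 60th percentile, which left out Trib3 and Ddit3. The mutant minus wild-type median of the Atf6 arm was 0.049 with the actin ratio and -0.0077 to 0.040 with single pools left out. The wild-type minus negative median of that arm was -0.012 with median centring, -0.0091 with the le2 tag and -0.0091 with the actin ratio, and that of the other ER folding genes was 0.14 with the actin ratio. Mutant minus wild-type, Atf6 and Ddit3 turned positive with array weights (0.035 and 0.080) and with the actin ratio (0.051 and 0.22), and ranged from -0.098 to 0.025 and from -0.13 to 0.12 with single pools left out; with the actin ratio Eif2ak3, Pdia4, Derl2 and P4hb turned to -0.013, -0.0029, -0.016 and -0.011. Eif2ak3 became 0.091 with a transgene and 0.097 in wild-type pools with the actin ratio, and -0.024 to 0.068 in mutant pools with single pools left out. Without wild-type replicate 2 the correlation of Atf4 with Hspa5 was 0.87 (exact permutation p = 0.0667, adjusted). That of Atf4 with Trib3 was 0.085, that with Asns 0.0015, and that of Xbp1 with Dnajb9 -0.71. The cause of these changes was not tested. Same-numbered pools correlated at -0.074 to 0.20 and others at -0.23 to 0.21. With 4 same-numbered pairs, these values cannot tell whether the numbers pair the pools. With the replicate block 3 probe sets and 0 members passed, and the arm medians stayed at 0.12, 0.098 and -0.0072. Trib3 and Atf3 lay near the background, and 1 negative pool limits every comparison with it.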
